A study of Mus musculus with 9 samples.

Results

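Isl1, its LIM-homeodomain relatives and the Ldb proteins that join them were followed here as 10 genes, namely Isl1, Isl2, Lhx1, Lhx2, Lhx5, Lhx9, Lmx1a, Lmx1b, Ldb1 and Ldb2. They were chosen by name, and their accessible regions were the distinct regions assigned to these symbols in the ATAC-Seq list of wild-type embryos. The 10 genes held 22 of the 17164 regions of that list, which names 11541 genes, and 7 of the 10 had at least 1 region. Lhx1, Lhx5 and Lmx1b had none.

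ATAC-Seq marks open chromatin as DNA into which the Tn5 transposase can insert adapters. The study made 9 libraries from hearts and pharyngeal mesoderm that were dissected from mouse embryos at E8.75 with 6 somites, 3 for each genotype, labelled wild type (wt), Isl1-/- and Isl1Cre+/-/ Brg1fl/fl. In the last genotype Cre is expressed from the Isl1 locus on 1 allele and removes the chromatin remodeler Brg1 from Isl1-expressing cells, so the cells also differ from wild type at Isl1 itself. The 6 mutant libraries were not analysed here, so no genotype was compared. The wild-type values were 1 list of regions found in all 3 libraries, with positions, an assigned gene and the distance from the region center to the assigned transcription start site (TSS). The list has no height and no value per library, so no value below carries a replicate error, no test between samples could be made, and the sequencing depth is unknown. Shares are given with 95% Wilson intervals for the counting error alone. The tissue holds several cell types, and a region open in few cells cannot be told apart from a weak region in many.

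LIM-homeodomain proteins carry a pair of LIM zinc fingers, which bind other proteins, and a homeodomain, which binds DNA. Ldb proteins bind the LIM fingers and dimerize, and so bring LIM-homeodomain factors at separate sites, or at an enhancer and a promoter, into a single complex. Isl1 marks second heart field progenitors, the cells that extend the heart tube at its arterial and venous poles, and is also expressed in motor neurons and pancreatic islets, whereas most of its relatives are known from the nervous system, limb, kidney or gonad.

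Sequences of 3 Isl1 regions are shown first because Isl1 had the most regions of the 10 genes. They are the 300 bp at the midpoint of the region at the TSS, of the widest region away from it, and of the only region of the 22 whose central 300 bp held an Isl1-type word. Isl1-type means CTAATG or TAATGG, words that hold the homeodomain core TAAT. The insulin enhancer oligo that the paper used as specific competitor for Isl1 holds TAATTA and neither of these words. The Isl1-type words thus do not cover every Isl1 site. All sequences are of the plus strand of mm9. In the windows of 300 bp, capitals mark the searched words on either strand. CATTAG is CTAATG and CCATTA is TAATGG read on the minus strand.
Isl1 TSS, chr13:117100032-117100331: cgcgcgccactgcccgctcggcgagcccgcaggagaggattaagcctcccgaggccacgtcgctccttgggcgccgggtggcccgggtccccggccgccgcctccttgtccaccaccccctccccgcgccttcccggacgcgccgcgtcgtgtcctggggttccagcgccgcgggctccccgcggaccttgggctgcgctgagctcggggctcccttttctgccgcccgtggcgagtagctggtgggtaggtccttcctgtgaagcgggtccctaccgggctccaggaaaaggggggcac
Isl1 region 15454 bp downstream, chr13:117084292-117084591: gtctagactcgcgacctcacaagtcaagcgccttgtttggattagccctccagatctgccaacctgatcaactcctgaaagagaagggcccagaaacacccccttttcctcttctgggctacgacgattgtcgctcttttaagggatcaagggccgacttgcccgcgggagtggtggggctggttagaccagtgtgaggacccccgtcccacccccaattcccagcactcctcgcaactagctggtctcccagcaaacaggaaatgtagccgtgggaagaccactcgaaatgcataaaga
Isl1 region 104479 bp upstream, chr13:117204225-117204524: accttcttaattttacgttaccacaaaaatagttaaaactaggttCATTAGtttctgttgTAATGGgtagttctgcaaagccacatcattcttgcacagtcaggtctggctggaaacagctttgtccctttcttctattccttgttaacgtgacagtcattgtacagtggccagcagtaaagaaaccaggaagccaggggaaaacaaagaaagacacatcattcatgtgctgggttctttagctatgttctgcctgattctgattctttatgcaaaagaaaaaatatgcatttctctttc
The window at the TSS was 74.3% GC, the downstream window 55.7% and the upstream window 38.7%. The first and second windows held none of the words of the 9 families searched, and the third held 2 Isl1-type words and no word of another family.

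Isl1 lies on the minus strand of chromosome 13, at 117088478 to 117099896 in mm9. It had 9 regions, 1 of them at the TSS, 7 upstream of the TSS in all and 2 downstream. Only 33 of 21027 protein-coding genes (0.157%) had as many. The region at the TSS (chr13:117099328-117101036) was 1709 bp wide, had its center 286 bp upstream, and covered the only annotated start of the gene. It was wider than 79.9% of all regions within 1 kb of a TSS.

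The other 8 Isl1 regions all lay more than 10 kb from the TSS and all had their midpoint in intergenic DNA. The nearest of them (chr13:117083462-117085423) lay 15454 bp downstream, past the 3' end of the gene. At 1962 bp it was the widest of the 22 regions and wider than 97.7% of all regions beyond 10 kb. The other downstream region (chr13:116991319-116992453) was 1135 bp wide and lay 108010 bp from the TSS. It was closer to the start of the predicted gene Gm6404, at 47913 bp, so its assignment to Isl1 rests on the deposited symbol.

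Going upstream, the first region after the TSS was also the narrowest of the 22. It lay 104479 bp away (chr13:117204098-117204653) and was 556 bp wide, and only 2.7% of regions in its distance class were narrower. The region 133862 bp upstream (chr13:117233011-117234506) was 1496 bp wide and wider than 92.8% of that class. These neighbors, 28357 bp apart, thus had widths near opposite ends of the class.

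The regions farther upstream fell between these widths. Those 186352 bp (chr13:117285672-117286824), 205311 bp (chr13:117304638-117305777) and 214215 bp (chr13:117313594-117314629) from the TSS were 1153, 1140 and 1036 bp wide, wider than 77.8%, 76.6% and 64.8% of the class. They formed the tightest group of the locus, with gaps of 17813 and 7816 bp between them. The farthest region (chr13:117365139-117365756) was 618 bp wide, with 6.35% of the class narrower, and lay 265551 bp upstream.

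From end to end the 9 regions spanned 374438 bp and covered 10805 bp of it, with no region of another gene among them. The next regions of the list lay 513014 bp away on the downstream side, assigned to Itga1, and 217984 bp away on the upstream side, assigned to Parp8. Between its neighbors Gm6404 and Parp8, the stretch of 699.2 kb around Isl1 held 10 regions, or 1.43 per 100 kb, against 0.65 per 100 kb over the autosomes and X. This density was higher around Ldb1 (2.87), Isl2 (2.66) and Lhx9 (1.72). It was lower around Lhx2 (0.892), Ldb2 (0.811), Lmx1a (0.625) and Lhx1 (0.334), and 0 around Lhx5 and Lmx1b. Only 2 of the Isl1 regions had their midpoint within 100 kb of the TSS.

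Long distance was common among genes with many regions. Of the 33 genes with at least 9, 26 had a region within 1 kb of a TSS and 18 had 7 or more regions beyond 100 kb, as Isl1 did. The median gene of the 33 had 63.6% of its regions beyond 100 kb and Isl1 had 77.8%, a share reached by 8 of the 33.

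**Figure D1:**
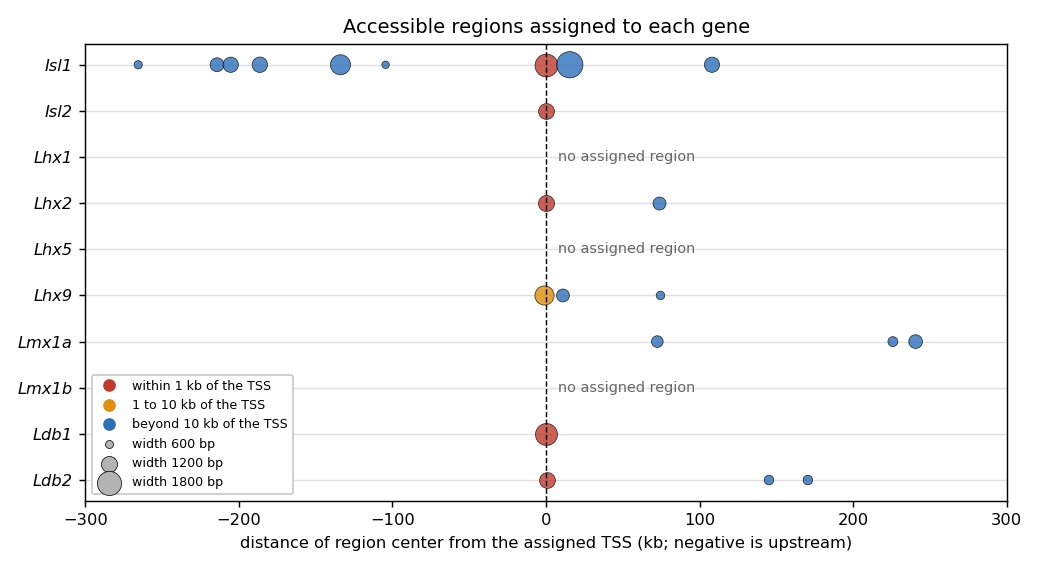
Position of each of the 22 regions relative to the assigned TSS (x axis, kb, negative is upstream) for the 10 genes (rows). Each point is a region, its area grows with the square of region width, and color gives the distance class. Isl1 has 6 regions beyond 100 kb upstream, the regions of the other genes beyond 10 kb are all downstream, and Lhx1, Lhx5 and Lmx1b have none.

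Isl2, the paralog of Isl1 known from motor neurons, had 1 region. It lay at the TSS (chr9:55388194-55389373), was 1180 bp wide with 53% GC, and covered 2 of the 4 annotated Isl2 starts and the start of the predicted gene Gm17226. Its center was 173 bp upstream of the assigned TSS and inside an intron of another Isl2 transcript. The pair thus had a covered start in common and differed in what lay around it, 8 regions beyond 10 kb for Isl1 and 0 for Isl2. The DNA between neighboring protein-coding genes also differed, with 37.6 kb around Isl2.

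Lhx2 and Lhx9 are close paralogs with roles in the forebrain, limb and, for Lhx9, the gonad. Lhx2 had 2 regions, a number reached by 12.9% of protein-coding genes. The region at the TSS (chr2:38205999-38207199) had its center 229 bp upstream, was 1201 bp wide, and was the richest in GC (67.5%) and CpG (8.16 per 100 bp) of the 22. It covered 1 of 5 annotated Lhx2 starts. The other (chr2:38279647-38280619) was 973 bp wide and lay 73305 bp downstream, beyond the gene. It had 58.6% GC, the highest of the 16 member regions beyond 10 kb.

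Lhx9 had 3 regions and none within 1 kb of the assigned TSS. The closest (chr1:140744557-140745991) was 1435 bp wide and had its center 1118 bp upstream, just past the limit. It covered 1 of the 6 annotated Lhx9 starts, with its midpoint 121 bp from that start, so by the annotation a start of Lhx9 was open. The region 10982 bp downstream (chr1:140727558-140728521) was 964 bp wide, had its midpoint in a coding exon of Lhx9, and had the lowest GC content of the 22 (36.1%). The third (chr1:140664220-140664853) was 634 bp wide and lay 74485 bp downstream in intergenic DNA.

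Lmx1a and Lmx1b, paralogs known from the roof plate and dopaminergic neurons and, for Lmx1b, the dorsal limb and kidney, had no region at an annotated start. Lmx1a had 3 regions, all downstream of the TSS. The first (chr1:169691706-169692575) lay 72451 bp away in an intron and was 870 bp wide. The widest (chr1:169859792-169860814) was 1023 bp wide and lay 240614 bp away, past the gene. The remaining region, 225798 bp downstream, was 739 bp wide, and 11.4% of its 31-mers occurred elsewhere in the genome, the highest share of the 22 regions. The nearest edge of any region to a start of Lmx1a was 72017 bp away, a distance exceeded by 21% of protein-coding genes.

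Lmx1b had no region, and the stretch of 261.4 kb between its neighbors Zbtb43 and Fam125b held none. The nearest region to an annotated start of Lmx1b (chr2:33226405-33227558, assigned to Ralgps1) was 260229 bp away, a distance exceeded by 5.79% of protein-coding genes.

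Lhx1 and Lhx5 are paralogs, the first known from the head organizer and the kidney and the second from the forebrain. Neither had a region. For Lhx5, the stretch of 259.8 kb between Rbm19 and Sdsl held no region of any gene, and the nearest (chr5:121038361-121039432, assigned to Iqcd) was 156466 bp from the start, a distance exceeded by 10.7% of protein-coding genes. For Lhx1 the nearest region was 8513 bp from a start (chr11:84326611-84327700). It was 1090 bp wide and assigned to the neighboring gene Aatf. Close to the middle of the range, 48.3% of protein-coding genes had their nearest region farther away. A gene without a listed region is not shown to be closed, since the list keeps only regions called in each of the 3 libraries and each region is given to 1 gene.

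The cofactor genes both had a region at the TSS. Ldb1, the broadly expressed adaptor, had that region only (chr19:46119197-46120837). It was 1641 bp wide, the third widest of the 22, with 65.2% GC and its center 316 bp upstream. It covered 3 of the 7 annotated starts of Ldb1 and also the start of Pprc1, which runs the other way, so the region cannot be given to either gene alone.

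Ldb2, the paralog with the narrower expression, had 3 regions. The region at the TSS (chr5:45190090-45191269) was 1180 bp wide, covered the only annotated start, and had 48% GC, the lowest of the 5 member regions within 1 kb of the TSS. The others lay 145132 bp (chr5:45045495-45046211) and 170467 bp (chr5:45020163-45020873) downstream, were 717 and 711 bp wide, and both fell in introns of this long gene of 327575 bp. The intronic region 145132 bp downstream held words of 4 of the 9 families in its central 300 bp, the most of any member region, and its window is shown for that reason, chosen after the values were seen.
Ldb2 intron, chr5:45045703-45046002: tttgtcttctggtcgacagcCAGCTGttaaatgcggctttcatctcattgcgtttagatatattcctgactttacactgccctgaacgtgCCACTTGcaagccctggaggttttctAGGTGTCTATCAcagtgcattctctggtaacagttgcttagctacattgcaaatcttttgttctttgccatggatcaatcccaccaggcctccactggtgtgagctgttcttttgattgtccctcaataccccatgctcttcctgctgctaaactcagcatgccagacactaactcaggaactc
In order, its capitals mark an E-box word, overlapping NK2 words, and a T-box word directly followed by a GATA word on the minus strand. These word families are those of basic helix-loop-helix, Nkx2-type, T-box and GATA factors, all of which have members active in heart progenitors. Singly the words were not rare. Of all regions over 1 kb from the TSS, 40.1% held an E-box word, 35.1% a GATA word, 26.6% an NK2 word and 10.8% a T-box word. No share of all regions with words of 4 families is given here, so this window is not shown to be unusual. A match is a string of letters and does not show that a factor bound.

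Counted over the group, 7 of the 10 genes had a region, beside 49.3% of the 21027 protein-coding genes. Isl1, Isl2, Lhx2, Ldb1 and Ldb2 (5 of 10) had a region within 1 kb of the assigned TSS, beside 40.6%. At least 3 regions were assigned to 4 of 10 (Isl1, Lhx9, Lmx1a and Ldb2), beside 4.96%, and a region beyond 100 kb to 3 of 10 (Isl1, Lmx1a and Ldb2), beside 5.11%. The counts of genes with a region, and with a region at the TSS, were near the background for 10 genes, and those for 3 or more regions and for long distance were above it but rest on 4 and 3 genes. The length of DNA between neighboring protein-coding genes also varied, and its part in these counts was not tested. The stretch was 699.2 kb for Isl1, 740 kb for Ldb2, 480.4 kb for Lmx1a, 232.3 kb for Lhx9, 224.3 kb for Lhx2, 69.7 kb for Ldb1 and 37.6 kb for Isl2. The 3 genes without a region had stretches of 299.5 kb (Lhx1), 261.4 kb (Lmx1b) and 259.8 kb (Lhx5).

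**Figure D2:**
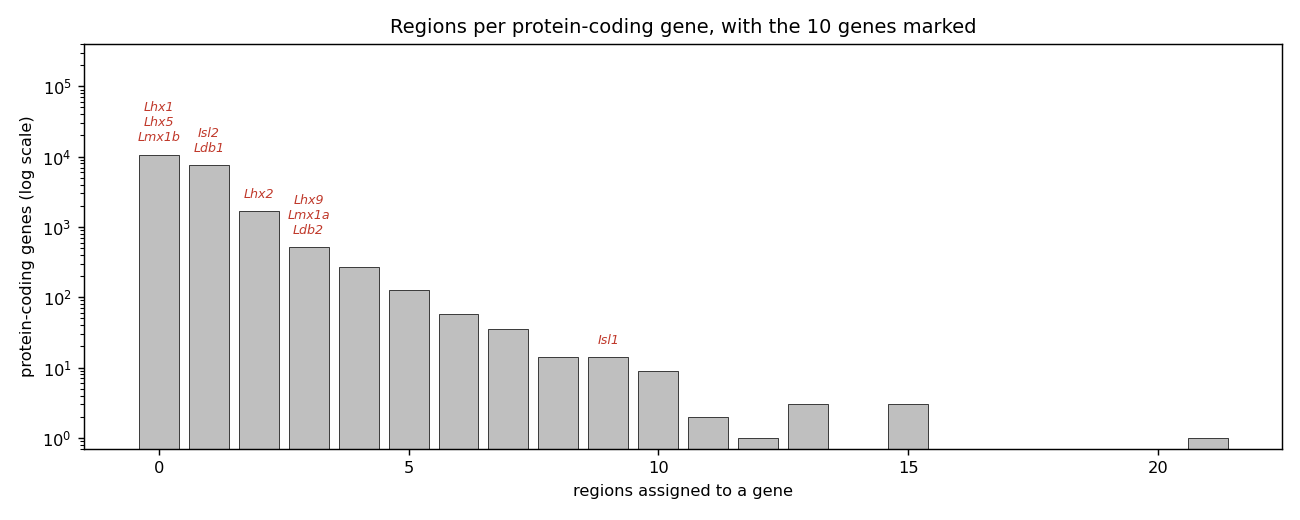
Number of protein-coding genes (y axis, log scale) by the number of regions assigned to a gene (x axis), with the 10 genes written above the bar they belong to. Isl1 stands at 9 regions, where few genes remain, and the other genes lie between 0 and 3.

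The member regions lay farther from the TSS than the list as a whole. Centers within 1 kb of the TSS were found for 5 of the 22 (22.7%, interval 10.1 to 43.4%), compared with 52.9% of all regions. Beyond 100 kb lay 11 (50%, interval 30.7 to 69.3%), compared with 14.9% of all regions. Isl1 alone gave 7 of these 11, and without it the share was 30.8%. Among regions more than 1 kb from the TSS, 7 of 17 (41.2%, interval 21.6 to 64%) were upstream, compared with 45.5% over the list. Isl1 held 6 of these 7, and the remaining one was the Lhx9 region 1118 bp upstream.

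In width the member regions were like the rest once distance was taken into account. Their median width was 1085.5 bp, compared with 1123 bp for all regions. The 16 beyond 10 kb had a median of 968.5 bp, compared with 937 bp for that class, and the 5 within 1 kb a median of 1201 bp, compared with 1294 bp. Within the members beyond 10 kb, the 8 Isl1 regions ranged from 556 to 1962 bp with a median of 1137.5 bp, and the 8 regions of the other genes from 634 to 1023 bp with a median of 804.5 bp. The 2 sets overlapped, and 6 of the 8 Isl1 regions were wider than every one of the others. Width grows with signal and depth as well as with the extent of open chromatin, and these cannot be told apart here.

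**Figure D3:**
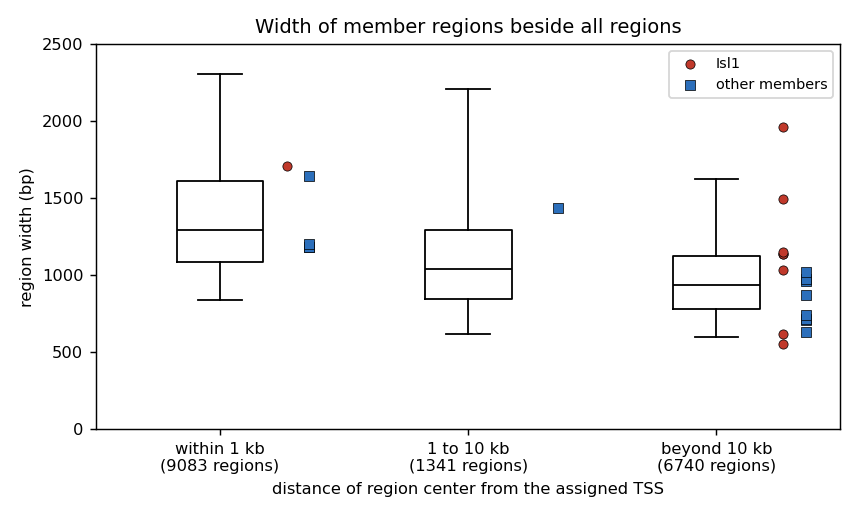
Width in bp (y axis) of all regions in 3 classes of distance from the assigned TSS, with boxes for the quartiles and median and whiskers for the 5th and 95th percentiles, beside each Isl1 region (circles) and each region of the other genes (squares). Beyond 10 kb, the Isl1 regions reach from 556 to 1962 bp and the others stay at or below 1023 bp.

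Base composition differed with distance, and within each class given here the members still had the lower median GC content. Median GC content was 46.1% for the 22 regions and 53.6% for all regions. Beyond 10 kb the members had 43.3% and the class 46.8%, with 42.4% for the 8 Isl1 regions and 45.2% for the other 8. Within 1 kb the medians were 56.3% for members and 58.1% for the class.

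Genes with a start rich in CpG usually had a start covered by a region of the list, and 4 of the 10 genes had a CpG-rich start but no covered start. Where a gene has several starts, the covered one need not be the one richest in CpG. The CpG frequency within 500 bp of a start, taken at the start where it was highest, was 7.69 per 100 bp for Isl1, 9.59 for Isl2, 9.99 for Lhx2 and 11 for Ldb1, all with a start covered by a region. Lmx1b reached 10.4, Lhx1 8.39, Lmx1a 7.89 and Lhx5 7.69, yet no region covered an annotated start of any of these. In their deciles of CpG frequency, between 71.1% and 76.3% of protein-coding genes had a covered start, so uncovered starts also occurred there among other genes. Lhx5 and Isl1 had the same CpG frequency at the start and differed in coverage.

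At the opposite end, Ldb2 had 1.7 CpG per 100 bp, in a decile in which 5.59% of genes had a covered start, and its start was covered. Lhx9 was intermediate, at 4.8 per 100 bp in a decile with 65.5% covered. In all, 6 of 10 genes had an annotated start covered by a region, the 5 above and Lhx9, beside 43.8% of 22350 protein-coding genes in the annotation.

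**Figure D4:**
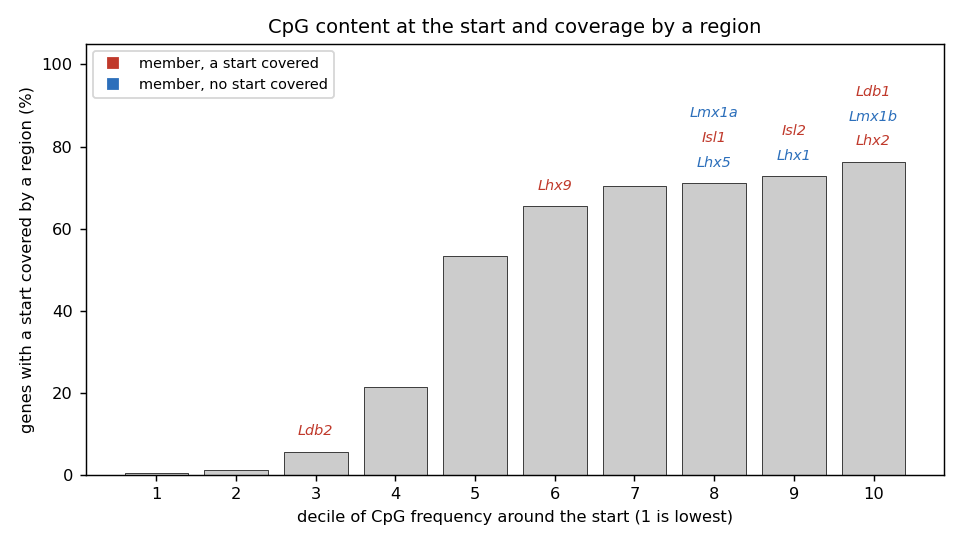
Share of protein-coding genes with an annotated start covered by a region (y axis, %) in deciles of CpG frequency within 500 bp of the start (x axis), with each of the 10 genes written above its decile, red where a start was covered and blue where none was. Ldb2 is covered in a decile at 5.59%, and Lmx1a, Lhx5, Lhx1 and Lmx1b are not covered in deciles at 71.1 to 76.3%.

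Words of 9 transcription factor families were counted in the central 300 bp of the regions, on both strands. The midpoint of a region is not its summit, which the list does not give. An Isl1-type word (CTAATG or TAATGG) was present in 1 of 22 member regions (4.55%, interval 0.807 to 21.8%), the Isl1 region 104479 bp upstream, beside 10.7% of all regions. The palindrome TAATTA, bound by many homeodomains, was in 0 of 22 (interval up to 14.9%), beside 4.34%. GATA words (AGATAA or AGATAG or TGATAA or TGATAG) were in 8 of 22 (36.4%, interval 19.7 to 57%), beside 22.6%. In regions over 1 kb from the TSS, where all 8 lay, they were in 8 of 17 (47.1%), compared with 35.1% of all such regions, which is within the interval of 26.2 to 69%.

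The 8 regions with a GATA word were spread over 4 genes, with 2 in Isl1 (133862 and 265551 bp upstream), 2 in Lhx9, 2 in Lmx1a and 2 in the Ldb2 introns. NK2 words (AAGTGG or CAAGTG) were in 5 of 22, beside 22.4%, with 3 in the Isl1 region 214215 bp upstream. E-box words (CAGCTG or CATCTG or CAGATG) were in 5 of 22, beside 31.2%. In regions over 1 kb from the TSS they were in 5 of 17 (29.4%), compared with 40.1% of all such regions. Of the 9 Isl1 regions, 0 held one, with an interval up to 29.9%, below both shares over all regions. Over the whole width 8 of 9 Isl1 regions held one, beside 73.1% of all regions. T-box words (AGGTGT) were in 3 of 22, beside 9.37%, TEAD words (GGAATG) in 3 of 22, beside 15.4%, and CTCF-type words (AGGGGGC) in 2 of 22, beside 12.9%. The forkhead word TGTTTAC was in none, beside 3.58%. For each of the 9 families the share over all regions lay within the interval of the share in the 22 member regions, and with 22 regions these intervals are wide.

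**Figure D5:**
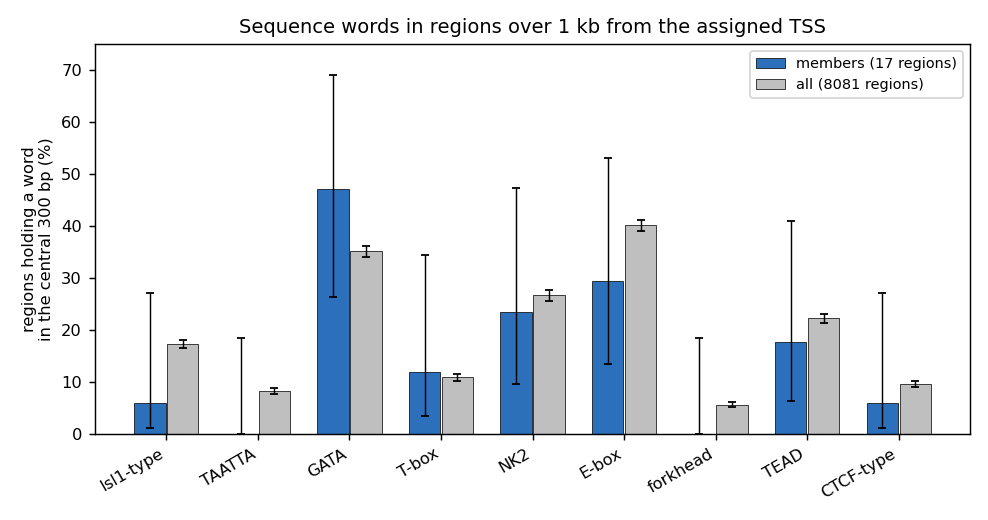
Share of regions over 1 kb from the assigned TSS that held a word of each family in the central 300 bp (y axis, %), for the 17 member regions (blue) and all 8081 such regions (gray). Bars are shares and error bars are 95% Wilson intervals. The member interval holds the share of all regions for every family.

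Over the whole width of the regions, Isl1-type words were in 9 of 22 (40.9%), compared with 41.2% of all regions. They lay in regions of Isl1, Lhx9, Ldb1 and Ldb2. Apart from the window given above, the words are shown with 30 bases each, because they are the Isl1-type letters that open regions of the Isl1 group hold. This set was chosen after the values were seen. Capitals mark only Isl1-type words here, and searched words of other families are left in lower case.
Isl1 region 214215 bp upstream, chr13:117314449-117314478: ctccttaggattCTAATGcctctgttagac
Isl1 region 133862 bp upstream, chr13:117233126-117233155: tatacatacttaCCATTAGtaatgtataga
Isl1 region 15454 bp downstream, chr13:117084118-117084147: ttgcagcattctCCATTAaacaataaagca
Lhx9 region 1118 bp upstream, chr1:140744586-140744615: ccaaggaggtgtTAATGGaagacttggcgg
Lhx9 region 1118 bp upstream, chr1:140744893-140744922: tccgtagctgggCATTAGaaacccagcaag
Lhx9 region 74485 bp downstream, chr1:140664702-140664731: tttctaccaactCATTAGtcagatgtctaa
Ldb1 region 316 bp upstream, chr19:46120334-46120363: gctgtggtatgaCCATTAGgctgggaaggg
Ldb2 region 145132 bp downstream, chr5:45045515-45045544: aattcacgtgatTAATGGaaggaaaagaaa
Ldb2 region 170467 bp downstream, chr5:45020196-45020225: aagagattatatCATTAGccatatacatga
In the Isl1 region 133862 bp upstream and in the Ldb1 region, CTAATG and TAATGG overlapped as 1 word of 7 bases. All of these words lay outside the central 300 bp, and the nearest was centered 180 bp from the midpoint, in the Lhx9 region 74485 bp downstream.

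Genes of the same pathway outside the group were looked at as 12 genes. Of these, 9 had a region, beside 49.3% of protein-coding genes, and 6 had a region within 1 kb of the TSS, beside 40.6%, with 19 regions in all. Among the 4 other LIM-homeodomain genes, 3 had a region, 1 of them at the TSS. Lhx8 had 3 regions, and Lhx4 had none. With these, 8 of 12 LIM-homeodomain genes had a region and 4 had a region within 1 kb of the TSS, beside the same 49.3% and 40.6%, and Isl1 held 9 of their 23 regions. The LIM-only genes encode LIM fingers without a homeodomain and compete for the same Ldb proteins. Of these, 3 of 4 had a region, each with a region at the TSS, and Lmo1 and Lmo4 had 5 regions each, a number reached by 1.26% of protein-coding genes. Lmo3 had none assigned, although a region given to A830011K09Rik lay 122 bp from an annotated Lmo3 start, a value singled out after it was seen. Of the genes of the Ssbp proteins, which bind and stabilize Ldb, 2 of 3 had a region, and Ssbp4 had none. Rlim, the gene of a ubiquitin ligase that acts on Ldb proteins, had 1 region, at the TSS.

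Outside the group, 5 heart transcription factor genes were looked up after the list had been seen. Mef2c had 5 regions, Tbx20 4 and Gata4 1, and Nkx2-5 and Tbx5 had none assigned. Over all protein-coding genes 49.3% had a region, so these 5 genes do not check the labelled tissue. The list gives open regions and no expression, so it cannot show which cell types the tissue held.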

How the data were processed

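Accessible regions of E8.75 pharyngeal mesoderm and hearts were taken from the 1 list deposited for the 3 wild-type libraries. According to the methods, the authors mapped reads to mm9 with bowtie2, kept proper pairs with samtools, removed duplicates with Picard 1.136, called peaks per library with MACS14 without a model and with a fixed shift, dropped blacklisted regions, and kept regions shared by at least 1 bp with bedtools 2.15. The deposited columns are other values, namely start and end in bp and the distance in bp to the assigned TSS. How genes were assigned to these regions is not given in the sources used here. No Tn5 offset is stated, so edges are not insertion sites.

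Rows with equal positions were counted once (17432 rows, 17164 regions). No column was left unmapped (0). Depth is unknown. Sequence came from NCBIM37, the build of mm9, with GENCODE vM1 starts. Protein-coding genes for the background were those with a curated transcript in the RefSeq table of GRCm38.p6, used for names only. Word counting was tested on simulated sequences. All 10 genes are named, with every Isl1 region, and for the others the region at the start and the widest other one, with the remaining regions added after their values were seen. Members, lists and words were chosen with earlier results of these data known. Python 3.11.15, numpy 2.4.6 and pandas 2.3.3 were used.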

Additional observations from a re-analysis of the deposited data

How the results depend on the processing

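Of 73 values recomputed under alternative settings, 61 stayed within their interval or close to the reported count and 12 moved further. Keeping only regions that reached the median width left 11 of the 22 (50%), with 1 each for Lhx2, Lhx9 and Ldb2 and 0 for Lmx1a. The same cut kept 50.1% of all regions, so a loss of this size follows from the cut itself. With long distance set at 200 kb in place of 100 kb, the share of member regions beyond it was 22.7%. A share falls at a longer cut, and the share of all regions beyond 200 kb is not given here. Whether the difference from the list held at that cut was therefore not tested. Searching the whole region moved Isl1-type words to 40.9% (all regions 41.2%), TAATTA to 22.7% (19.5%), GATA to 81.8% (71.4%), NK2 to 77.3% (67.4%) and E-box to 72.7% (73.1%). The share over all regions, in brackets, rose with the wider search too. Without the Isl1 regions the Isl1-type share in the central 300 bp was 0%. Giving each region to the nearest annotated protein-coding start left 20 regions on the same number of genes, 7, with 8 for Isl1 and 2 for Lmx1a. Settings chosen after seeing the data were any annotated start, which gave 6 genes with an open start in place of 5, and leaving out Isl1 for the share beyond 100 kb, which gave 30.8%.

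The list gives no value per library, so leaving out a library was not possible. No paired analysis was possible because the values are 1 list common to 3 libraries. Counts of 22 regions leave wide intervals, and regions below the calling threshold in any library are missing at an unknown depth.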
